A study of Homo sapiens with 20 samples.

Results

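The genes read here, 9 in all, act in mammary hormone response: the receptors for oxytocin (OXTR), prolactin (PRLR), progesterone (PGR), oestrogen (ESR1), growth hormone (GHR), glucocorticoid (NR3C1) and vitamin D (VDR), the parathyroid hormone-related peptide gene PTHLH, and the oestrogen sulfotransferase SULT1E1. All probe sets, the groups of short oligonucleotides that report a transcript on the array, whose annotation gives 1 of these symbols were taken. This gave 31 probe sets for 8 of the 9 genes, out of 19775 genes measured, and PTHLH was not analysed here. OXTR and SULT1E1 were chosen by their large opposite differences between the groups on these same arrays, so their values are a description with no test. The cells were MII, also called MCF10-T1k, an established human mammary epithelial line transformed by RAS and grown without stroma. Every group grew in DMEM/F12 with horse serum, insulin, EGF, hydrocortisone and cholera toxin, so a glucocorticoid was present throughout. The 5 groups received siRNA against GFP (control), against APC (siAPC), against APC and TAZ (siAPC/siTAZ), against beta-catenin (sibcat), or against beta-catenin and TAZ (sibcat/siTAZ). Each had 4 biological replicates, A to D, and no group received TAZ siRNA alone. Values are deposited log2 signals, on which a difference of 1 is a doubling, and group means are given ± SD with n = 4. The labels do not say whether replicates came from separate cultures, so a p-value speaks only for the spread among these arrays, whose number limits the precision.

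Steroid receptors and VDR are ligand-activated transcription factors, whereas OXTR is a G protein-coupled receptor and PRLR and GHR are cytokine receptors that signal through the kinase JAK2 and the factor STAT5. In the mammary gland, oestrogen and progesterone drive ductal growth and branching, prolactin drives secretory differentiation, and oxytocin makes myoepithelial cells contract to eject milk. SULT1E1 transfers a sulfate group to oestrogens, and the sulfated hormone no longer binds its receptor. APC helps to hold beta-catenin for destruction, so that its loss raises the Wnt effector beta-catenin. TAZ, encoded by WWTR1, activates genes together with TEAD transcription factors.

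Each siRNA target was lower where its siRNA was given. APC was at 8.22 in the control and 7.35 in siAPC, and CTNNB1 (beta-catenin) at 11.94 in the control and 10.60 in sibcat. WWTR1 was at 11.06 in the control, 7.98 in siAPC/siTAZ and 8.41 in sibcat/siTAZ. It was also somewhat below the control without TAZ siRNA, at 10.64 in siAPC and 10.62 in sibcat. With TAZ siRNA both first targets were lower still, CTNNB1 at 9.20 in sibcat/siTAZ and APC at 6.89 in siAPC/siTAZ. The Wnt target AXIN2 was at 10.96 in siAPC/siTAZ against 10.10 in siAPC, and at 4.62 in sibcat/siTAZ against 4.29 in sibcat. Both TAZ siRNA comparisons thus also carry less RNA of the first target. Without a group given TAZ siRNA alone, a deeper first knockdown and an effect of TAZ siRNA on these RNAs cannot be told apart. Array medians lay between 5.07 and 5.11, and a signal under them is called low here. The 6 measured mammary epithelial markers had group means of 8.50 or more in all groups. The 5 endothelial and 5 leukocyte markers measured had group means of at most 6.73. Group means of the 6 fibroblast markers spread widely, from 2.75 for LUM to 12.76 for DCN, both in sibcat/siTAZ. As a measure of RNA quality, the mean 3′ minus 5′ signal of ACTB ran from 1.56 in siAPC through 1.81 in sibcat, 1.83 in the control and 1.99 in siAPC/siTAZ to 2.04 in sibcat/siTAZ. That of GAPDH was smaller and in another order, at 0.09 in the control, 0.12 in sibcat, 0.125 in siAPC, 0.16 in siAPC/siTAZ and 0.18 in sibcat/siTAZ.

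OXTR was high after either single depletion and far lower wherever TAZ siRNA was added. Its single probe set read 5.65, 5.68, 5.52 and 5.54 in control replicates A to D. In siAPC it read 10.30, 10.37, 10.24 and 10.26, and in sibcat 9.87, 9.74, 9.83 and 9.73. With TAZ siRNA it read 4.79, 4.80, 4.85 and 5.05 in siAPC/siTAZ and 6.38, 6.22, 6.42 and 6.39 in sibcat/siTAZ. The groups stood in the order siAPC, sibcat, sibcat/siTAZ, control, siAPC/siTAZ, and no array of one group reached the range of its neighbour. Against the control, OXTR was 25.9-fold higher in siAPC and 18.3-fold higher in sibcat. TAZ siRNA left it 42.8-fold lower than siAPC alone and 10.9-fold lower than sibcat alone. With TAZ siRNA the groups lay on opposite sides of the control, at a log2 difference of -0.725 in siAPC/siTAZ, where the signal was low, and 0.755 in sibcat/siTAZ. In RNA from whole cultures, fewer cells of a type and less RNA per cell cannot be told apart.

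SULT1E1 ran the other way and was read by 2 probe sets. The brighter, 222940_at, read 6.96, 6.77, 6.67 and 6.79 in the control and 3.91, 3.59, 4.10 and 3.83 in siAPC. In sibcat it read 5.81, 5.73, 5.93 and 5.80. With TAZ siRNA it read 7.18, 7.54, 7.36 and 7.37 in siAPC/siTAZ and 8.87, 8.92, 8.88 and 8.93 in sibcat/siTAZ. The order was sibcat/siTAZ, siAPC/siTAZ, control, sibcat, siAPC, again with no overlap between neighbours. Relative to the control, SULT1E1 was 7.67-fold lower in siAPC, at a low signal that can understate the fold, and 1.97-fold lower in sibcat. TAZ siRNA left it 11.4-fold higher than siAPC alone, a fold over the same low signal, and 8.47-fold higher than sibcat alone, so that sibcat/siTAZ cells held 4.29-fold more signal than the control. The other probe set, 219934_s_at, gave the same order of groups, with means of 6.75 ± 0.11 in the control, 3.52 ± 0.19 in siAPC, 7.41 ± 0.06 in siAPC/siTAZ, 5.775 ± 0.21 in sibcat and 9.13 ± 0.07 in sibcat/siTAZ. It gave 14.9-fold for TAZ siRNA in siAPC and 10.2-fold in sibcat. The group means of SULT1E1 stood in the same order as those of the ACTB 3′ minus 5′ signal given above, whose part in these values was not tested. OXTR stood in another order.

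**Figure D1:**
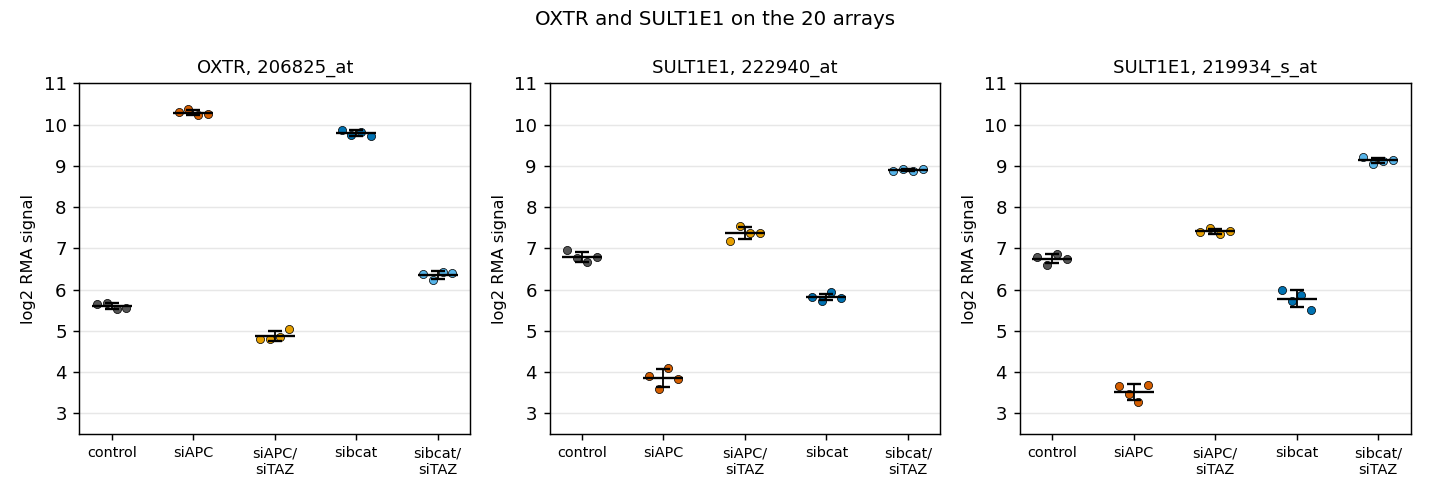
Log2 signal (y axis) of OXTR and of both SULT1E1 probe sets in the 5 groups (x axis), with 1 point per array, the group mean as a long bar and the SD as whiskers (n = 4). OXTR peaks in siAPC at 10.29 and sibcat at 9.79, where both SULT1E1 probe sets lie below their control values.

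The start regions of both genes are shown because TAZ acts through TEAD factors and beta-catenin through TCF/LEF factors. Each sequence is the 250 bases before the most distal RefSeq start on GRCh38.p14, upstream of the transcribed gene, read 5′ to 3′ on the minus strand. The OXTR window is chr3:8769614-8769863 and the SULT1E1 window is chr4:69860146-69860395. Capitals mark a match to GGAATG (TEAD) on either strand, CTTTGA (TCF/LEF), TGANTCA (AP-1) or AGGTCA (nuclear receptor half-site), and no printed matches overlapped.
OXTR: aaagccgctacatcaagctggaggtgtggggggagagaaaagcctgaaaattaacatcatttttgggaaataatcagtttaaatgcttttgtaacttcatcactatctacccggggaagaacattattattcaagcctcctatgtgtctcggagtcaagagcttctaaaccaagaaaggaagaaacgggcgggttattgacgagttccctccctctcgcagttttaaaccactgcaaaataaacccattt
SULT1E1: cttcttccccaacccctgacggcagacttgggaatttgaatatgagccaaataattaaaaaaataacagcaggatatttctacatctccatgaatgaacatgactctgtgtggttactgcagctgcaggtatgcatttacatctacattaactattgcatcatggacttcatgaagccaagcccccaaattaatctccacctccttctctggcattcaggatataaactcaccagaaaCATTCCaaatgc
The SULT1E1 window holds CATTCC, the reverse complement of GGAATG, at bases -12 to -7 from the start, and the OXTR window holds none of the 4 motifs. A second OXTR start, inside the annotated gene, has CTTTGA at bases -214 to -209. Among 35116 such windows in the RefSeq table, 11.9% hold GGAATG, 11.2% CTTTGA, 6.57% TGANTCA and 12.1% AGGTCA on either strand. Windows were found for 8 of the 9 genes, with 1 to 7 starts each and none for VDR. GGAATG was also found in at least 1 window of ESR1, GHR and NR3C1. So were CTTTGA and AGGTCA in GHR, and TGANTCA in PRLR and NR3C1. ESR1 has 6 windows and GHR and NR3C1 have 7 each, so a match in any of them is likelier than the share per window. These matches are letters in a window and not measured sites.

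The genes closest to OXTR in pattern were LYPD6, ZNF385B, SLC4A4, PSG9 and RGS7. Closeness is the root mean square difference between the genes' 4 mean differences from the control, on the log2 scale, and it was 0.47 for LYPD6 and 0.76 for RGS7. LYPD6 was 4.455 above the control in siAPC and 4.04 above it in sibcat, but only 0.09 above it in siAPC/siTAZ and 0.39 in sibcat/siTAZ. SLC4A4, a sodium bicarbonate cotransporter, had the same 4 differences at 4.13, 3.71, -0.03 and 0.08. All 5 of these genes had low control signals, between 2.65 and 4.26, against 5.60 for OXTR, so a value far below the control could not be read for them. PSG9 belongs to a family of near-identical genes that its probe set may not separate.

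SULT1E1 was followed most closely by FABP4, NR4A2, FZD10, TNFSF10 and MMP1, at root mean square differences of 0.59 to 0.86. FABP4, a fatty acid-binding protein best known from adipocytes, was at -2.28 in siAPC, -0.14 in sibcat, 1.05 in siAPC/siTAZ and 2.165 in sibcat/siTAZ relative to the control, against -2.94, -0.98, 0.565 and 2.10 for SULT1E1. The interstitial collagenase MMP1 was at -1.955, -1.36, 1.61 and 1.225. FABP4 was the only one of the 4 measured adipocyte markers to exceed the array medians in any group, as ADIPOQ, PLIN1 and LEP had group means between 2.41 and 4.97. The summed level of all 4 (log2 of the sum) was 7.23 to 7.40 in the control, 5.94 to 6.36 in siAPC and 7.16 to 7.28 in sibcat. It was 8.04 to 8.21 in siAPC/siTAZ and 9.05 to 9.21 in sibcat/siTAZ. FABP4, picked above for its likeness to SULT1E1, was the largest part of this sum in every group but siAPC. That the sum had the group order of SULT1E1 is therefore no separate result. Fibroblast markers moved with SULT1E1 in part. Their summed level (log2 of the sum of 6 genes) was 12.49 to 12.61 in the control, 11.52 to 11.59 in siAPC, 12.01 to 12.09 in sibcat, 13.14 to 13.18 in siAPC/siTAZ and 13.05 to 13.15 in sibcat/siTAZ. DCN had group means from 11.32 in siAPC to 12.76 in sibcat/siTAZ. COL1A1 ranged from 8.54 in siAPC to 11.22 in siAPC/siTAZ, and COL3A1 from 4.55 in sibcat to 9.86 in siAPC/siTAZ. PDGFRA and LUM had group means of at most 3.93 in all groups, and COL1A2 of at most 4.81. The part of either marker list in the SULT1E1 values was not tested.

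**Figure D2:**
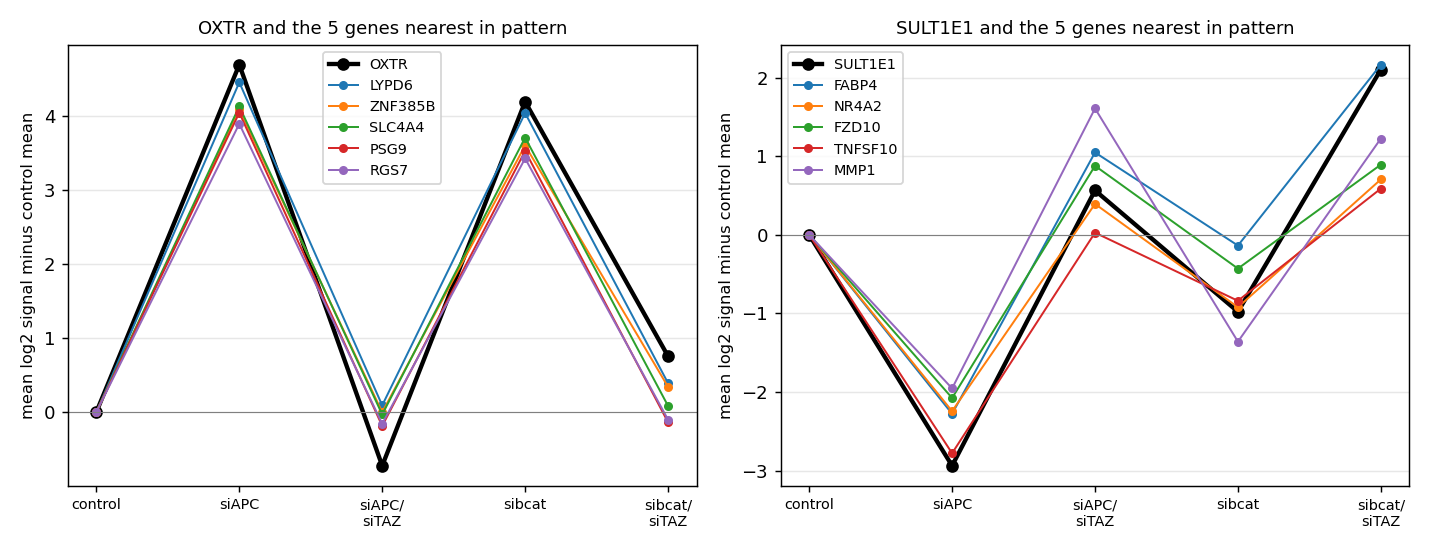
Mean log2 signal minus the control mean (y axis) in the 5 groups (x axis) for OXTR with the 5 genes nearest in pattern (left) and SULT1E1 with its 5 (right), n = 4 arrays per mean. OXTR lies at -0.725 in siAPC/siTAZ. The 5 genes beside it had low control signals, so a value far below the control could not be read for them.

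The other 6 measured genes were tested in a fit across all 19775 genes, each by its brightest probe set, and called at a Benjamini-Hochberg adjusted p under 0.05. After siAPC, 2 of the 6 were called, GHR higher and VDR lower, where 40% of all genes were called. After sibcat 3 were called, GHR higher and NR3C1 and VDR lower, against 37.1% of all genes. Adding TAZ siRNA to siAPC gave 2 calls, NR3C1 higher and VDR lower, against 43.5%. Adding it to sibcat gave no call against 31.7%, with 1 of the 6 at an unadjusted limma p under 0.05. Over all 28 probe sets of these genes, the calls numbered 4 after siAPC (30.2% of all probe sets), 10 after sibcat (26%), 13 for TAZ siRNA in siAPC (35.5%) and 6 for TAZ siRNA in sibcat (22.6%). Against the control, 14 were called in siAPC/siTAZ (38.7%) and 12 in sibcat/siTAZ (35%). A count of 2 or 3 of 6 is near these backgrounds and is no result about the receptors as a group. The comparisons share arrays, so their values are set side by side.

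VDR was lowered by APC depletion more than by beta-catenin depletion. Its brightest probe set, 204254_s_at, read 9.06, 9.12, 9.18 and 9.25 in the control, 8.47, 8.47, 8.40 and 8.42 in siAPC, and 8.93, 8.84, 8.92 and 8.91 in sibcat. It read 8.21, 8.34, 8.27 and 8.37 in siAPC/siTAZ and 8.96, 8.86, 8.84 and 8.87 in sibcat/siTAZ. The control stood above all other groups, the 2 beta-catenin groups overlapped, and the 2 APC groups lay lowest without overlap. VDR fell by 0.71 ± 0.046 (SE, limma adjusted p = 1.3e-10) after siAPC, a 1.64-fold reduction, and by 0.25 ± 0.046 (adjusted p = 1.7e-04) after sibcat. The direct comparison placed siAPC 0.46 below sibcat (adjusted p = 1.2e-07). TAZ siRNA lowered VDR by a further 0.14 in siAPC (adjusted p = 0.0162), a call lost without siAPC/siTAZ replicate A (-0.113, adjusted p = 0.0656), and the difference in sibcat was -0.018 (adjusted p = 0.837). The test of the difference between these TAZ siRNA effects gave -0.125 ± 0.065 (adjusted p = 0.185). A second probe set, 204255_s_at, singled out after its values were seen, fell by 0.51 after siAPC (adjusted p = 1.1e-06), by 0.22 after sibcat (adjusted p = 0.0104) and by a further 0.26 with TAZ siRNA in siAPC (adjusted p = 0.00181). The dimmer 204253_s_at differed by -0.09 after siAPC (adjusted p = 0.454) and fell by 0.325 with TAZ siRNA in siAPC (adjusted p = 0.00215). In that TAZ siRNA comparison 3 of the 4 VDR probe sets were called lower, against 16.4% of all probe sets. The low 213692_s_at was called in none of these comparisons. With the mean of all 4 probe sets, the fall after sibcat was not called (-0.099, adjusted p = 0.137).

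GHR was modestly higher in all 4 depleted groups. Its only probe set read 5.51, 5.46, 5.30 and 5.59 in the control, 5.76, 5.59, 5.83 and 5.69 in siAPC, and 5.84, 5.89, 5.64 and 5.74 in sibcat. In siAPC/siTAZ it read 5.90, 5.96, 5.85 and 5.86, and in sibcat/siTAZ 5.92, 5.90, 6.12 and 5.74. Control replicate D matched the lowest siAPC array at 5.59, and otherwise the control lay below every other array. GHR rose by 0.25 ± 0.077 (SE, adjusted p = 0.0124) after siAPC and by 0.31 ± 0.077 (adjusted p = 0.00285) after sibcat. Against the control it rose by 0.43 in siAPC/siTAZ (adjusted p = 9.9e-05) and by 0.455 in sibcat/siTAZ (adjusted p = 5.5e-05), where 47.2% and 44.9% of all genes were called. The step added by TAZ siRNA was 0.175 in siAPC (adjusted p = 0.077) and 0.14 in sibcat (adjusted p = 0.19). Without control replicate C the difference after siAPC was 0.197 and was not called (adjusted p = 0.0561). The control was also lowest and sibcat/siTAZ highest in the GAPDH 3′ minus 5′ signal given above, whose part in these values was not tested. These are small differences of a gene whose signal lay little above the array medians.

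**Figure D3:**
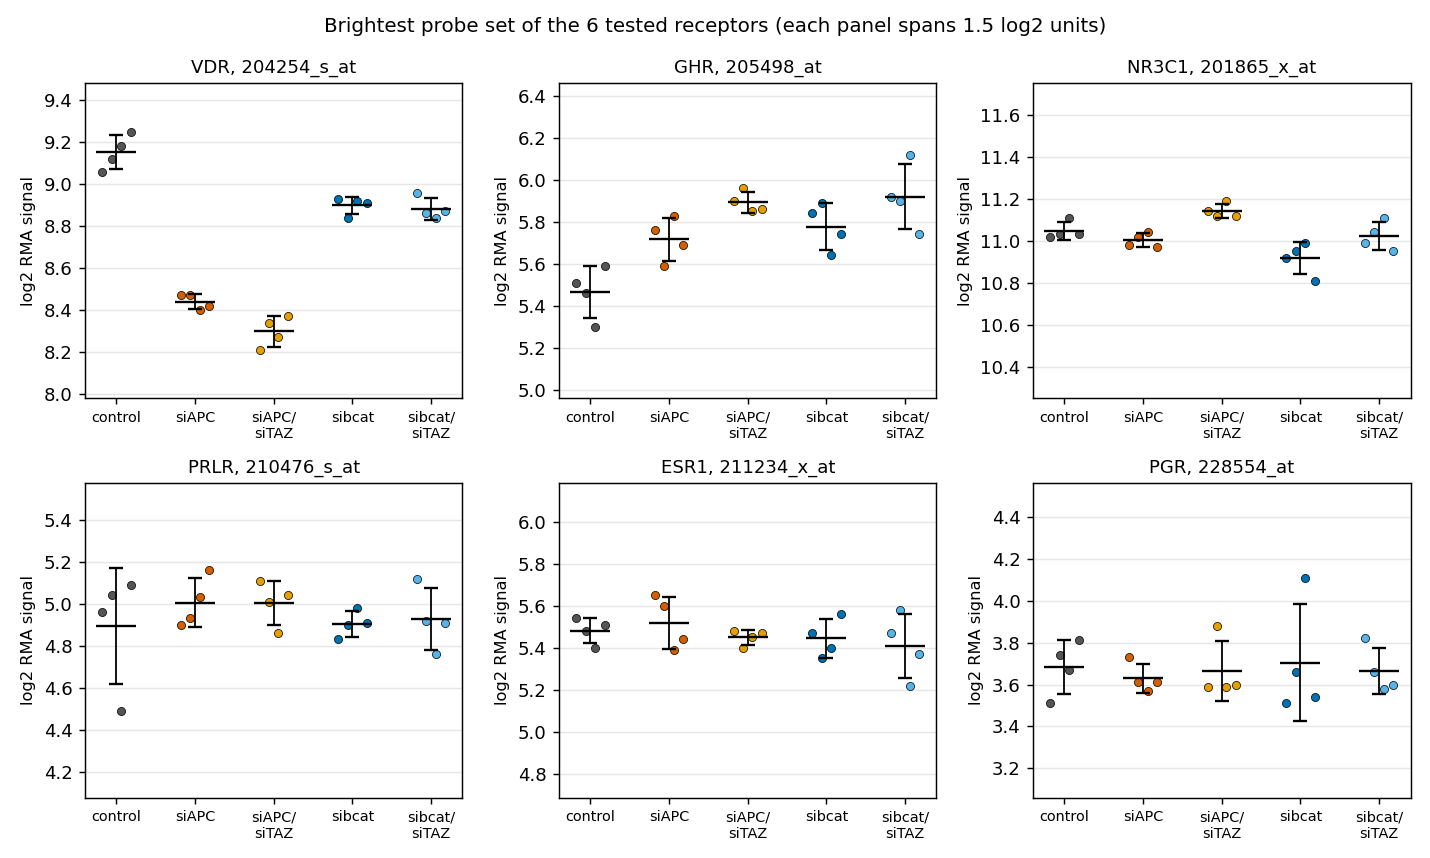
Log2 signal (y axis, each panel spanning 1.5 units but at its own level) of the brightest probe set of the 6 tested receptors in the 5 groups (x axis), with 1 point per array, the mean as a long bar and the SD as whiskers (n = 4). VDR separates the control at 9.15 from both APC groups at 8.44 and 8.30, GHR lies lowest in the control, and PRLR, ESR1 and PGR overlap throughout.

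What was read of PRLR depended on the probe set. The brightest of its 7, 210476_s_at, had group means between 4.895 and 5.005 and was called in none of the 9 comparisons. Probe set 227629_at, singled out after its values were seen, read 3.35, 3.29, 3.69 and 3.42 in the control, 3.97, 3.93, 4.02 and 4.12 in siAPC, and 4.16, 4.14, 4.23 and 4.01 in sibcat. With TAZ siRNA it read 4.78, 5.16, 4.49 and 4.70 in siAPC/siTAZ and 5.16, 5.82, 5.48 and 5.47 in sibcat/siTAZ. The control lay lowest, siAPC and sibcat overlapped above it, and the TAZ siRNA groups lay highest, meeting at 5.16. The GAPDH 3′ minus 5′ signal, too, was lowest in the control and highest in the TAZ siRNA groups, and its part in these values was not tested. This probe set rose by 0.57 ± 0.129 (SE, adjusted p = 0.00151) after siAPC and by 0.70 ± 0.129 (adjusted p = 2.7e-04) after sibcat. TAZ siRNA added 0.77 in siAPC (adjusted p = 5.6e-05) and 1.35 in sibcat (adjusted p = 7.7e-08). With TAZ siRNA, 4 of the 7 PRLR probe sets were called higher in siAPC (19.1% of all probe sets were higher and 16.4% lower) and 3 in sibcat (12.7% and 9.9%), and none was called lower. Among them, 206346_at, also picked after its values were seen, rose by 0.63 (adjusted p = 5.4e-05) and by 0.52 (adjusted p = 7.8e-04). All these signals were low except 227629_at in sibcat/siTAZ and on 1 siAPC/siTAZ array, and 206346_at had group means of 2.47 to 3.30. The step that TAZ siRNA added to 227629_at was larger in sibcat by the test of the difference (-0.575 ± 0.182, adjusted p = 0.0313), a call lost without any of 5 single arrays, as given in the closing section.

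NR3C1 was strongly expressed and its probe sets disagreed in direction. The brightest, 201865_x_at, read 11.02, 11.03, 11.11 and 11.03 in the control, 10.98, 11.02, 11.04 and 10.97 in siAPC and 10.92, 10.95, 10.99 and 10.81 in sibcat. In siAPC/siTAZ it read 11.14, 11.12, 11.19 and 11.12, and in sibcat/siTAZ 10.99, 11.04, 11.11 and 10.95. All siAPC/siTAZ arrays exceeded every siAPC array, and the sibcat arrays lay below the control. It fell by 0.13 ± 0.043 (SE, adjusted p = 0.0232) after sibcat and rose by 0.14 ± 0.043 (adjusted p = 0.0126) with TAZ siRNA in siAPC. The sibcat call was lost without control replicate C (-0.109, adjusted p = 0.0803), without sibcat replicate D (-0.094, adjusted p = 0.0914), and under other settings given in the closing section. With TAZ siRNA in sibcat the difference was 0.105 (adjusted p = 0.0768), which was called without sibcat replicate C (0.129, adjusted p = 0.0399), without sibcat/siTAZ replicate D (0.129, adjusted p = 0.0415) and under further settings given in the closing section. The mark _x in its name denotes probes that may also bind other transcripts.

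Another 2 NR3C1 probe sets, singled out after their values were seen, moved in opposite directions with TAZ siRNA. 232431_at read 7.65, 7.55, 7.66 and 7.61 in siAPC and 8.50, 8.56, 8.47 and 8.62 in siAPC/siTAZ, a rise of 0.92 ± 0.069 (SE, adjusted p = 8.6e-10). In sibcat it read 7.93, 7.85, 7.77 and 7.60 and in sibcat/siTAZ 8.17, 8.39, 8.43 and 8.42, a rise of 0.565 ± 0.069 (adjusted p = 2.1e-06). The control read 7.46, 7.46, 7.56 and 7.42, so both TAZ siRNA groups stood clear above the rest. After sibcat alone it rose by 0.31 (adjusted p = 0.00144). By contrast, 216321_s_at had means of 10.81 ± 0.04 in the control, 10.78 ± 0.034 in siAPC, 10.67 ± 0.047 in siAPC/siTAZ, 10.575 ± 0.085 in sibcat and 10.235 ± 0.033 in sibcat/siTAZ. It fell by 0.24 after sibcat (adjusted p = 5.1e-04) and by a further 0.34 with TAZ siRNA (adjusted p = 1.1e-05), while TAZ siRNA in siAPC made a difference of -0.11 (adjusted p = 0.0764). Of the 5 NR3C1 probe sets, 4 were called higher with TAZ siRNA in siAPC and none lower (19.1% and 16.4% of all probe sets). In sibcat 2 were called higher and 1 lower (12.7% and 9.9%).

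ESR1 was dim, and 1 of its 9 probe sets separated the APC from the beta-catenin groups. The brightest, 211234_x_at, had group means between 5.41 and 5.52 and was called in no comparison. Its name carries the _x mark, so its signal may include other transcripts. Probe set 205225_at, singled out after its values were seen, read 4.13, 4.32, 4.05 and 4.16 in the control, 4.31, 4.61, 4.34 and 4.48 in siAPC and 5.36, 5.24, 5.27 and 5.09 in siAPC/siTAZ. It read 3.06, 3.59, 3.29 and 3.29 in sibcat and 3.15, 3.47, 3.01 and 3.39 in sibcat/siTAZ. Both beta-catenin groups lay below every control array, and siAPC/siTAZ lay above all other groups. This probe set fell by 0.86 ± 0.109 (SE, adjusted p = 3.3e-06) after sibcat, differed by 0.27 after siAPC (adjusted p = 0.0702), and rose by 0.805 ± 0.109 (adjusted p = 4.4e-06) with TAZ siRNA in siAPC. In sibcat, TAZ siRNA made a difference of -0.05 (adjusted p = 0.81). Only siAPC/siTAZ reached the array medians. Among the other 8 probe sets, only 215552_s_at was called in these 4 comparisons, falling by 0.19 after sibcat and by 0.17 with TAZ siRNA in siAPC. PGR, a gene that oestrogen receptor induces in breast epithelium, lay between 2.43 and 4.11 on all arrays in its 2 probe sets and was not called in any comparison.

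**Figure D4:**
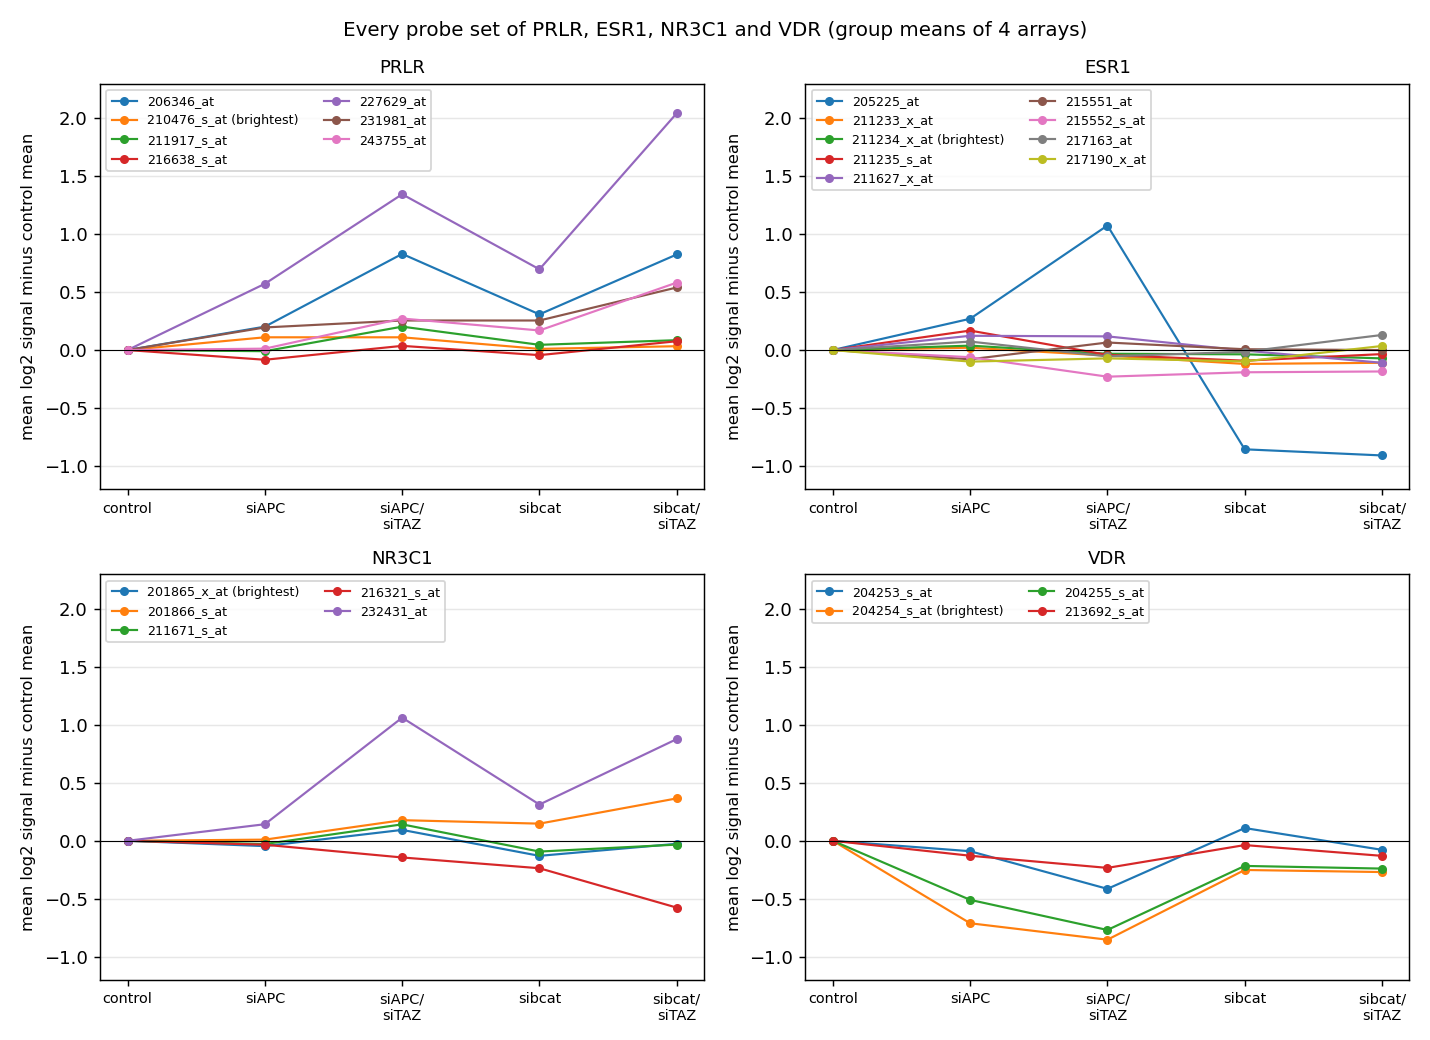
Mean log2 signal minus the control mean (y axis) for each probe set of PRLR, ESR1, NR3C1 and VDR in the 5 groups (x axis), n = 4 arrays per mean, with the brightest probe set of each gene marked. Single probe sets depart from the rest of their gene, such as ESR1 205225_at at 1.075 in siAPC/siTAZ and -0.91 in sibcat/siTAZ, while the 2 brightest of VDR move together.

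Direct comparisons set the APC groups against the beta-catenin groups. Without TAZ siRNA, OXTR was 1.41-fold higher in siAPC than in sibcat and SULT1E1 3.89-fold lower on 222940_at and 4.78-fold lower on 219934_s_at, over the low siAPC signal. With TAZ siRNA, both were lower in siAPC/siTAZ than in sibcat/siTAZ, OXTR 2.79-fold and SULT1E1 2.90-fold. Of the 6 tested genes only VDR was called between siAPC and sibcat (33.8% of all genes), as were 4 of the 28 probe sets (24.9%). Between siAPC/siTAZ and sibcat/siTAZ, where 45% of all genes and 36.2% of all probe sets were called, 12 of the 28 probe sets were called. VDR was 0.585 lower (adjusted p = 1.5e-09) and NR3C1 0.12 higher (adjusted p = 0.0297), a call lost without any of 4 single arrays. ESR1 probe set 205225_at was 1.13 higher in siAPC than in sibcat (adjusted p = 8.9e-08) and 1.985 higher in siAPC/siTAZ than in sibcat/siTAZ (adjusted p = 5.2e-12). The effect of TAZ siRNA itself was compared between the backgrounds in the same limma fit. None of the 6 brightest probe sets was called for this difference and none reached an unadjusted p under 0.05, where 27.7% of all genes were called, whereas 4 of the 28 probe sets were called (18.7% of all probe sets). For OXTR the effect was 1.98 more negative in siAPC, and for SULT1E1 it was 0.42 more positive on 222940_at and 0.54 more positive on 219934_s_at, again over the low siAPC signal.

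The partner genes of these receptors were read from lists, each described by its calls beside those over all genes. After siAPC 21.3% of all genes were called higher and 18.7% lower, after sibcat 21.4% and 15.7%, with TAZ siRNA in siAPC 20.7% and 22.8%, and with TAZ siRNA in sibcat 18% and 13.7%. The genes named are those with the smallest adjusted p in a list. Of 17 measured genes of oxytocin receptor signalling, 7 rose and 4 fell after siAPC (median difference -0.005, against -0.002 for all genes), and 5 rose and 6 fell with TAZ siRNA in siAPC. After sibcat and with TAZ siRNA in sibcat, 4 rose and 4 fell. PLCB4, a phospholipase C that acts below Gq proteins, rose by 1.975 ± 0.093 (SE, adjusted p = 1.0e-12) after siAPC and by 1.405 after sibcat, and fell by 1.22 with TAZ siRNA in sibcat. The calcium release channel ITPR1 fell by 1.485 and 1.17 after the single depletions, and RGS2, an inhibitor of Gq signalling, fell by 1.14 and 0.89. With TAZ siRNA, the myosin light chain kinase MYLK fell by 1.855 in siAPC (adjusted p = 1.8e-14) and fell by 1.36 in sibcat (adjusted p = 3.9e-12).

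SULT1E1 needs the sulfate donor PAPS, which PAPSS1 and PAPSS2 make. In the 4 main comparisons PAPSS2 had the sign of OXTR and not that of SULT1E1. Its mean was 6.53 in the control, 9.32 in siAPC, 8.71 in sibcat, 6.81 in siAPC/siTAZ and 5.96 in sibcat/siTAZ. It rose by 2.795 ± 0.067 (SE, adjusted p = 3.8e-17) after siAPC and by 2.18 after sibcat, and with TAZ siRNA it fell by 2.515 in siAPC and fell by 2.745 in sibcat. PAPSS1 fell by 0.56 after siAPC (adjusted p = 2.4e-11), and the steroid sulfatase STS, which removes the sulfate again, fell by 1.175 (adjusted p = 4.0e-13). CYP1B1, an oestrogen hydroxylase, rose with TAZ siRNA by 1.75 in siAPC and by 0.87 in sibcat, and the quinone reductase NQO1 rose by 0.755 and 0.84. Of 20 measured genes of oestrogen sulfation and metabolism, 5 rose and 7 fell after siAPC, 4 and 7 after sibcat, 8 and 4 with TAZ siRNA in siAPC, and 6 and 2 with TAZ siRNA in sibcat.

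Genes that glucocorticoids induce were lower after siAPC in 10 of 15 measured cases and higher in 3 (median -0.44, against -0.002 for all genes), although NR3C1 itself was not called there. PDK4, a brake on glucose oxidation, fell by 1.625 ± 0.073 (SE, adjusted p = 4.7e-13), and the EGF receptor inhibitor ERRFI1 fell by 0.94, while the kinase SGK1 rose by 0.89. After sibcat 5 rose and 8 fell (median -0.13). With TAZ siRNA, 5 rose and 7 fell in siAPC, and 8 rose and 3 fell in sibcat. PDK4 rose by 1.87 with TAZ siRNA in siAPC, where the phosphatase DUSP1 fell by 1.15. FKBP5, which this list shares with the receptor chaperones, rose with TAZ siRNA by 0.52 in siAPC and 0.23 in sibcat.

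In the vitamin D list, 3 of 13 measured genes fell and none rose after siAPC, and 4 fell and none rose after sibcat. RXRA, the partner with which VDR binds DNA, fell by 0.77 ± 0.044 (SE, adjusted p = 2.0e-11) after siAPC and fell by 0.465 after sibcat (adjusted p = 5.3e-08), and rose with TAZ siRNA by 0.73 and 0.535. CYP27B1, which makes the active hormone, fell by 0.805 after siAPC and fell by 0.925 after sibcat. With TAZ siRNA, 6 of the 13 rose and 1 fell in siAPC, and 5 rose and none fell in sibcat. CD14 fell by 2.70 after siAPC (adjusted p = 8.6e-18) and by 0.23 after sibcat. It is also a marker of myeloid cells, and the 5 measured leukocyte markers had summed levels of 7.24 to 7.42 in siAPC and 7.40 to 7.54 in the control. Among them LYZ, which myeloid cells express, had means of 4.54 in the control, 3.46 in siAPC and 3.61 in sibcat, all low. In the same groups, CSF1R was at 5.39, 5.47 and 5.44, and PTPRC at 2.67, 2.72 and 2.69. CD3E was at 5.22, 5.07 and 5.12, and CD79A at 6.11, 5.99 and 5.96. The part of such cells was not tested.

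For PRLR and GHR signalling, 2 of 15 measured genes rose and 5 fell after siAPC, and 3 rose and 3 fell after sibcat. With TAZ siRNA, 2 rose and 6 fell in siAPC, and 1 rose and 3 fell in sibcat. JAK2 fell by 0.68 ± 0.077 (SE, adjusted p = 4.5e-07) after siAPC. The feedback inhibitor SOCS3 fell by 0.53 after siAPC and rose by 0.325 after sibcat, a rise not called with the mean of all its probe sets (0.126, adjusted p = 0.0812), and with TAZ siRNA it fell by 1.07 in siAPC and fell by 0.335 in sibcat. SOCS2 fell by 0.555 after sibcat, and with TAZ siRNA it fell by 0.665 more. Of 12 oestrogen receptor targets, 3 rose and 2 fell after siAPC, and 4 rose and 4 fell after sibcat, while with TAZ siRNA 4 rose and 5 fell in siAPC and 4 rose and 4 fell in sibcat. With TAZ siRNA, STC2 fell by 2.01 ± 0.048 (SE, adjusted p = 3.8e-17) in siAPC and fell by 1.93 in sibcat, and CA12 rose by 0.99 and 0.935. XBP1 rose by 0.875 after siAPC and by 0.535 after sibcat. By their brightest probe sets, the 4 measured paracrine mediators of ovarian hormones gave 1 call in 2 of these 4 comparisons and none in the others. More were called with the mean of all probe sets, as given in the closing section. ID4 fell by 0.41 after sibcat (adjusted p = 7.7e-04) and CALCA fell by 0.265 with TAZ siRNA in siAPC (adjusted p = 0.0168). The CALCA call was lost without siAPC replicate D (-0.236, adjusted p = 0.0535) or without siAPC/siTAZ replicate A (-0.216, adjusted p = 0.0649). Among 9 measured genes below the PTHLH receptor, 4 rose and 1 fell after siAPC, none rose and 4 fell after sibcat, and with TAZ siRNA 4 rose and none fell in siAPC and 4 rose and 2 fell in sibcat. After siAPC MSX2, a homeobox factor, rose by 2.22 ± 0.059 (SE, adjusted p = 1.4e-16). PDE4D, which degrades cyclic AMP, rose with TAZ siRNA by 1.735 in siAPC (adjusted p = 3.0e-18) and by 0.83 in sibcat.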

How the data were processed

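Total RNA was labelled with biotin and hybridised to Affymetrix arrays, per the labels. The authors deposited log2 signals, a scale read from the range of the values. RMA, named in the submitters' processing notes, corrects background, brings arrays to one distribution and summarises each probe set. Its version and the scan dates are not given in the sources here. Of 54675 probe sets on 20 arrays, 41097 carried 1 symbol in GEO's platform annotation, 1801 several and 11777 were not named here. No 2 arrays were identical.

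A two-sided moderated test of group means (limma 3.58.1, R 4.3.3) used all 20 arrays, with p-values adjusted by Benjamini and Hochberg's method over 19775 genes (1 probe set each, the highest mean) and again over 54613 probe sets. No filter on low signals was applied. The fit was tested on simulated data. Members, lists, tests and alternatives were chosen with earlier results of these data known. Named genes were all members, 5 genes nearest to OXTR and to SULT1E1, and up to 3 genes per list and main comparison by smallest adjusted p. Alternatives changed the probe set rule, signal filter, moderation, weights, block, centring, arrays in the fit and single arrays. Promoter windows and gene names came from RefSeq (GRCh38.p14). Of the single-symbol probe sets, 41043 matched a current gene name.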

Additional observations from a re-analysis of the deposited data

Results flagged for a closer look

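The effect of TAZ siRNA differed between the siAPC and sibcat backgrounds for 4 probe sets of the members, by the test of the difference in the limma fit over all probe sets. For ESR1 205225_at the effect was 0.857 higher in siAPC (adjusted p = 3.4e-04), where all 4 siAPC/siTAZ arrays exceeded all siAPC arrays. For NR3C1 232431_at it was 0.355 higher (adjusted p = 0.0123), and for NR3C1 216321_s_at 0.23 higher (adjusted p = 0.0172), with differences of -0.11 in siAPC (adjusted p = 0.0764) and -0.34 in sibcat (adjusted p = 1.1e-05). For PRLR 227629_at the difference was -0.575 (adjusted p = 0.0313), the rise being larger in sibcat, and this call was lost on leaving out any of 5 single arrays (siAPC D, siAPC/siTAZ C or D, sibcat D, sibcat/siTAZ B; -0.547 to -0.463, adjusted p 0.0605 to 0.0729).

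In 6 of 155 groups of 4 arrays, 1 array stood far from the other 3, and chance gives about 1 in 20. These were the ESR1 215552_s_at signal of 3.96 in siAPC, the NR3C1 201865_x_at signal of 11.11 in the control, the NR3C1 232431_at signal of 8.17 in sibcat/siTAZ, the PGR 228554_at signal of 3.88 in siAPC/siTAZ, the PRLR 216638_s_at signal of 2.41 in siAPC and the VDR 213692_s_at signal of 4.78 in sibcat.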

How the results depend on the processing

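OXTR and SULT1E1 were chosen for their large differences on these arrays. That these kept their direction in the 4 main comparisons under every alternative is therefore no support for them. The mean of both SULT1E1 probe sets gave 3.70 in place of 3.505 for TAZ siRNA in siAPC and 3.22 in place of 3.08 in sibcat. The number of the 6 receptors called moved with the probe set rule. With the mean of all probe sets of a gene it was 2 for TAZ siRNA in sibcat (beside 28.9% of all genes under that rule), 4 for siAPC/siTAZ (46.4%) and 5 for sibcat/siTAZ (42.5%) against the control, 2 for siAPC against sibcat (31.6%), 4 for siAPC/siTAZ against sibcat/siTAZ (43.2%) and 1 for the difference between the TAZ siRNA effects (24.8%). PRLR was then called in the 4 main comparisons, and WNT4 turned from 0.045 to -0.178 after siAPC (adjusted p = 0.0146). Under the same rule TNFSF11 was called after siAPC (-0.407, adjusted p = 2.1e-06) and after sibcat (-0.362, adjusted p = 1.2e-05). Calls among the 4 paracrine mediators were then 2 after siAPC (37.9% of all genes) and 3 after sibcat (34.6%). With TAZ siRNA they were 2 in siAPC (42.2%) and 1 in sibcat (28.9%). Requiring a mean signal of at least 6 left 2 of the receptors, NR3C1 and VDR, with 1 call after siAPC (67.6% of the genes left), 1 for TAZ siRNA in sibcat (57.4%) and 1 for sibcat/siTAZ against the control (74.4%). For TAZ siRNA in sibcat, NR3C1 was the 1 call with a signal of at least 5 on 4 arrays (0.105, adjusted p = 0.0421), with trend and robust moderation (adjusted p = 0.0199) and with the replicate block (adjusted p = 0.025). Centring the arrays, or fitting only the groups compared, left 1 call between siAPC/siTAZ and sibcat/siTAZ. The fall of NR3C1 after sibcat was not called with centring (-0.105, adjusted p = 0.0627), with only those groups in the fit (adjusted p = 0.0952) or with the mean of all probe sets. The replicate block moved no other count of receptors, but it also called TNFSF11 after sibcat (-0.18) and WNT4 with TAZ siRNA in siAPC (-0.182). The replicate letters were not taken to pair the arrays, since same-letter residuals correlated at a median of only 0.027 (lowest -0.088), against -0.009 for other letters. Of the 4 letters, an array's own letter gave the highest mean correlation with arrays of other groups for 9 of 20 arrays. That is more than an even share among the 4 letters, a hint of pairing from the data and not from the design. GHR was called with TAZ siRNA in siAPC under array weights (0.188, adjusted p = 0.0377), with only the groups compared (adjusted p = 0.0314) and without siAPC C (adjusted p = 0.0458). ESR1 205225_at was called after siAPC with the signal filter at 5, the replicate block, centring, only the groups compared and without control B (0.27 to 0.322, adjusted p 0.0257 to 0.0467).

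Leaving out each array in turn gave 1 to 2 receptors called after siAPC, 2 to 3 after sibcat, 1 to 3 for TAZ siRNA in siAPC, 0 to 1 for TAZ siRNA in sibcat (1 without sibcat C or sibcat/siTAZ D) and 1 to 2 between siAPC/siTAZ and sibcat/siTAZ (1 without siAPC/siTAZ A or C or sibcat/siTAZ A or D). The alternatives for all probe sets and for list genes were chosen after seeing the data. A mean signal of at least 6, which left 8 of the 28 probe sets, gave 2 calls after siAPC, 8 for TAZ siRNA in siAPC, 8 for siAPC/siTAZ against the control and 5 for sibcat/siTAZ against the control, beside 64.7%, 70.2%, 74.9% and 71.3% of all probe sets left. Between siAPC and sibcat the 4 calls became 7 of 15 with a signal of at least 5 on 4 arrays (46.5% of all probe sets left), and ranged from 4 to 7 over single arrays left out (7 without sibcat D). Low signals limit PRLR, ESR1 and PGR, whose levels lie close to or under the medians of the arrays, where a difference is compressed. Causes of these shifts were not tested beyond the smaller number of probe sets under a filter.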

Other observations

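Other nuclear receptors were read beside the members. Of 15 measured, 6 rose and 4 fell after siAPC, 6 rose and 2 fell after sibcat, 4 rose and 3 fell with TAZ siRNA in siAPC, and 1 rose and 7 fell with TAZ siRNA in sibcat. The orphan receptor NR2F1 rose by 1.57 ± 0.044 (SE, adjusted p = 3.3e-16) after siAPC and by 0.82 after sibcat. NR3C2, the mineralocorticoid receptor and closest relative of NR3C1, rose by 0.95 after siAPC and fell with TAZ siRNA by 0.79 in siAPC and 1.07 in sibcat, at signals near or below the array medians. RORA fell by 1.18 with TAZ siRNA in sibcat (adjusted p = 2.5e-11), and PPARG rose by 0.685 after sibcat.

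Of 13 measured chaperones and coregulators of steroid receptors, 4 rose and 3 fell after siAPC and 7 rose and 4 fell after sibcat. With TAZ siRNA, 5 rose and 6 fell in siAPC and 4 rose and 3 fell in sibcat. PGRMC2, a haem-binding membrane protein of the progesterone receptor membrane component family, rose by 0.94 ± 0.08 (SE, adjusted p = 8.6e-09) after siAPC and by 0.805 after sibcat, and fell with TAZ siRNA by 2.07 and 1.38. The coactivator NCOA2 fell by 0.51 after siAPC, and the pioneer factor FOXA1 fell by 0.515 there to a mean of 5.39. The corepressor NRIP1, also among the oestrogen receptor targets, fell by 0.54 after sibcat.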
